A study of Homo sapiens and Mus musculus with 41 samples.

Results

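The MDA-MB-231 leptomeningeal derivative, abbreviated Lep, was compared with its parental line, abbreviated Par, across all genes of the deposited MDA-MB-231 table. MDA-MB-231 is an established human breast cancer line of the triple-negative, mesenchymal type. The comparison used 5 of the 41 libraries of the series, 2 Lep and 3 Par, taken by their labels. Of the 23368 genes in the table, 15106 reached a value of 10 in 2 or more of its 10 libraries and were tested.

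The series measured polyadenylated RNA in cultured parental, intermediate, leptomeningeal and brain metastatic cells of 4 tumour models, to look for genes that mediate spread to the leptomeninges. All cells of the table, Par included, stably expressed GFP. Lep cells had been rinsed with PBS from the leptomeningeal space of mice that bore such metastases. They were then grown on plastic in DMEM with fetal bovine serum until the culture was uniformly GFP-positive, and passaged before RNA was taken. The table also holds 2 libraries of the intermediate stage derivative (Int) and 3 of the brain metastatic derivative (BrM), which entered the fit and are set beside the Lep values. The labels give no genotype change, drug or treatment for any group and do not state the age or strain of the mice. Par replicates are technical by the design text, and Int and Lep replicates partly biological and partly technical, with none identified, so the p-values below measure only the spread between these libraries. RNA was measured after culture, so these are levels in cultured derivatives and not in cells within the meninges.

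The leptomeninges enclose the cerebrospinal fluid, a compartment poor in protein, iron and other nutrients. Tumour cells that live there have been described as secreting complement C3, which acts on the epithelium of the choroid plexus, and the iron-binding protein lipocalin 2, encoded by LCN2, which works with its receptor SLC22A17 in iron uptake. C3, LCN2 and many chemokines are textbook targets of NF-kB and of the interleukin-1 and interleukin-6 families, which is why those families were listed here beside complement and iron handling.

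The mesenchymal markers listed for the line were present in both groups, and its identity was not tested further. VIM, the mesenchymal intermediate filament, ranged from 310695 to 431119 normalized counts over the 5 libraries, and the surface proteins CD44 and AXL from 50099 to 66626 and from 42807 to 59608. The estrogen receptor gene ESR1 stayed at 8.22 or below. ERBB2, the HER2 gene, ranged from 2748 to 3998 with overlapping groups, and GATA3, of the same list as ESR1, from 275 to 566. EGFR, of the mesenchymal list, was uneven within Par, at 18838, 8709 and 2706, with 11163 and 9510 in Lep. Of 12 macrophage and microglia markers 4 passed the filter, and C1QA, C1QB and TYROBP were at 0 in all 5 libraries. Host cells in the cultures would be mouse cells, and these counts are of human genes.

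The libraries of a group differed from each other by more than counting noise. Recovered depth was 35755050 to 66443723 reads in Par and 62078432 and 67354695 in Lep. Normalized counts also followed transcript length to a different degree in each library: across the 14353 genes with a known length, the Spearman correlation of a library's deviation with length was 0.45, -0.36 and -0.44 in Par replicates 1 to 3 and 0.23 and 0.00 in Lep replicates 1 and 2. The Lep minus Par difference also increased with length, from a median of -0.15 log2 in the shortest of 5 equal groups of genes to 0.16 in the longest, whereas the difference between Lep replicate 1 and Par replicate 1 ran the other way, with a correlation of -0.29. Of 11852 genes with a mean of at least 100, 3366 differed 2-fold or more between Par replicates 1 and 3, and 527 between Par replicate 1 and Lep replicate 1. All these are correlations and counts across genes, which are not independent replicates.

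**Figure D1:**
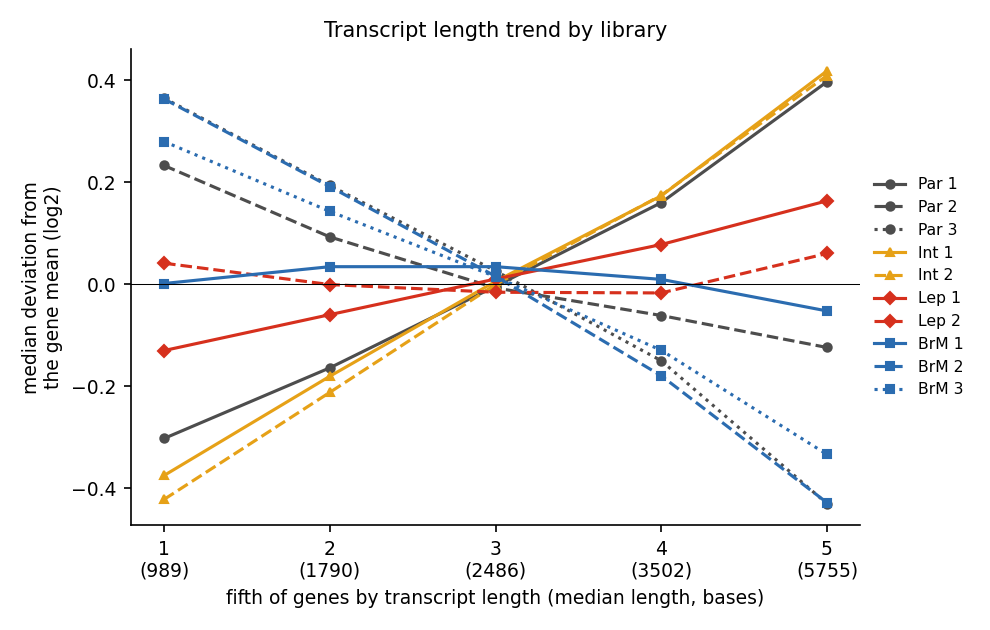
Median deviation of each library from the mean of the table (vertical axis, log2) for 5 groups of genes ordered by transcript length (horizontal axis, labelled with the median length in bases, 989 to 5755). Each line is 1 of the 10 libraries, coloured by stage. Par 1 and both Int libraries rose with length, reaching 0.40 in the longest group for Par 1, whereas Par 3 fell to -0.43 and the Lep libraries lay between them at 0.16 and 0.06.

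Par replicate 1 and Lep replicate 1 also had high values of genes that were low or at 0 in the other libraries. In Par replicate 1, 41 genes had a value of at least 20 and more than 8 times that of each of the other 9 libraries, among them TPH2 at 911, KIT at 413, ERBB4 at 476 and CDH1 at 306. Summed over the 41 genes, Lep replicate 1 had 4.39% of the Par replicate 1 value and the other 8 libraries 0.483% to 1.08%. In Lep replicate 1 there were 23 such genes. The highest were IL2RA, an interleukin-2 receptor chain, at 199.7, the leukocyte protein gene LSP1 at 194, the neural homeobox gene OTP at 137, the myosin gene MYO1G at 94.2 and the T-cell co-receptor gene CD4 at 78.7, all at 3.74 or below in Lep replicate 2. CD3E, a T-cell receptor component among the fixed lymphocyte markers, was at 38.96 there, whereas CD8A, the only one of those markers that passed the filter, had 101.8 to 179.5 in Par and 77.9 and 90.4 in Lep. Lep replicate 2 had 1 such gene and the other 7 libraries none. None of these high genes was among the genes described below as separating the groups, but the rules largely fixed that outcome. Most of those high in Lep replicate 1, such as IL2RA, did not pass the filter. A gene high in 1 Par library cannot have both Lep libraries above Par. Over all genes, the counts of calls and of genes separated by 2-fold are given with all libraries and again without both Par replicate 1 and Lep replicate 1. Counts within the gene lists were not repeated without these 2 libraries. That second fit has 1 Lep library, which is assumed to vary like the other groups.

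Lep differed from Par in 10 genes by the test across all genes, among them enzymes of prostaglandin and vitamin D metabolism, a serotonin receptor and a protocadherin. Of the 10, 3 rose in Lep: PTGES, RASD1 and C20orf112. The 7 that fell were OLFML1, ITM2A, PTGFRN, HTR1F, TRIM61, CYP24A1 and PCDH7. These are 0.0662% of the genes tested, 0.0199% higher and 0.0463% lower, by limma with all 10 libraries in 1 fit, a Benjamini-Hochberg adjusted p below 0.05 and a change of at least 2-fold. Far more genes, 443 higher and 179 lower, had both Lep libraries on the same side of all 3 Par libraries with a mean difference of at least 2-fold, which is 2.93% and 1.18% of the genes tested. Without a size limit the groups did not overlap in 1284 genes higher and 1454 lower (8.5% and 9.63%), and 832 and 767 had an unadjusted p below 0.05 (5.51% and 5.08%). With 2 against 3 libraries, groups without any difference would often not overlap either. The non-overlap counts therefore describe the order of the libraries and are no test of a difference. The count of calls depended on the fit. DESeq2 on the recovered reads called 188 higher and 86 lower (1.24% and 0.569%), edgeR called 4 and 4 (0.0265% each), and a correction for transcript length and GC content gave 45 and 36 (0.314% and 0.251%). A fit without BrM gave 12 and 6 (0.0794% and 0.0397%), one of Lep and Par alone 3 and 1 (0.0199% and 0.00662%), and leaving out both Par replicate 1 and Lep replicate 1 gave 153 and 161 (1.01% and 1.07%). All 10 genes were among the calls of that last fit and of DESeq2. Leaving out single libraries moved the counts from 0 higher and 3 lower without Par replicate 2 to 51 higher and 61 lower without Par replicate 1, while 17 higher and 69 lower were called without Lep replicate 2.

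PTGES encodes the inducible prostaglandin E synthase, the last enzyme in the synthesis of prostaglandin E2. It had 828, 898 and 1205 normalized counts in Par and 5644 and 4980.2 in Lep. The lowest Lep library was thus more than 4 times the highest Par library, and the Int libraries were higher still, at 10432 and 12205. On the log2(value + 1) scale the rise was 2.46 ± 0.29 (standard error; limma adjusted p = 0.0243, 2 against 3 libraries). RASD1, a small GTPase induced by glucocorticoids, had 345, 483 and 584 in Par and 2152 and 2139 in Lep, with no overlap and nearly equal Lep values. It rose by 2.22 ± 0.26 (limma adjusted p = 0.0243). C20orf112, a gene listed here by an open reading frame symbol, had 303, 338 and 289 in Par and 874 and 817 in Lep. It rose by 1.45 ± 0.17 (limma adjusted p = 0.0243). All 3 calls were lost without Par replicate 2, with nearly unchanged differences of 2.41, 2.26 and 1.51 (limma adjusted p = 0.139, 0.132 and 0.102), and those of PTGES and RASD1 also without Lep replicate 1, at 2.37 and 2.22 (limma adjusted p = 0.0599 and 0.0566).

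OLFML1, a secreted protein with an olfactomedin domain, was the gene with the largest called difference. It had 316, 185 and 464 in Par and only 4.87 and 5.98 in Lep. Both Lep libraries were thus near the level of 3 reads, and every Par library was more than 30 times higher. OLFML1 fell by 5.56 ± 0.45 on the log2 scale (limma adjusted p = 0.00505), and it was called in all 21 alternatives, with adjusted p between 1.65e-18 and 0.0435. ITM2A, an integral membrane protein of differentiating cartilage and T cells, had 176, 228 and 296 in Par and 10.6 and 1.49 in Lep. It fell by 5.42 ± 0.57 (limma adjusted p = 0.0162). Its call was lost without Par replicate 2 (log2 fold change -5.42, adjusted p = 0.102).

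PTGFRN, an immunoglobulin-superfamily membrane protein that binds the prostaglandin F2-alpha receptor and tetraspanins, had 297, 238 and 429 in Par and 8.12 and 19.4 in Lep. The groups lay far apart and PTGFRN fell by 4.52 ± 0.39 (limma adjusted p = 0.00505), called whichever single library was left out. Int had 882 and 697 and BrM 304 to 485, so within this table PTGFRN was low in the Lep libraries alone. HTR1F, a serotonin receptor, had 19.1, 19.7 and 11.3 in Par and 0 in both Lep libraries. Against a floor of 3 reads per library it was at least 7.16-fold lower in Lep (limma adjusted p = 0.00505). That bound rests on the Par mean, and Par replicate 3 alone was 4.84-fold above the floor. The call was lost with a pseudocount of 10 and with Lep and Par alone. Int had 209.5 and 184 and BrM 70.9 to 109, above Par.

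CYP24A1, the vitamin D 24-hydroxylase that inactivates the hormone, had 1736, 875 and 1756 in Par and 87.7 and 97.1 in Lep. It fell by 3.90 ± 0.52 (limma adjusted p = 0.0468). The groups did not overlap, but the adjusted p lay just under the threshold, and the call was lost without Par replicate 2 or 3 and without either Lep replicate, with log2 fold changes of -4.23, -3.72, -3.82 and -3.97 (limma adjusted p = 0.102, 0.0922, 0.0735 and 0.067). PCDH7, a protocadherin reported in brain metastasis of this same line, had 270.1, 144 and 186 in Par and 38.96 and 32.1 in Lep. It fell by 2.42 ± 0.29 (limma adjusted p = 0.0282). It was lost without Par replicate 2 or 3, at -2.63 and -2.45 (limma adjusted p = 0.0712 and 0.0624). TRIM61, a member of the tripartite motif family, had 23.2, 23.8 and 30.7 in Par and 1.62 and 0 in Lep. It fell by 4.04 ± 0.51 (limma adjusted p = 0.0341), lost without Par replicate 2 or 3 at -4.10 and -3.92 (limma adjusted p = 0.139 and 0.0857).

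**Figure D2:**
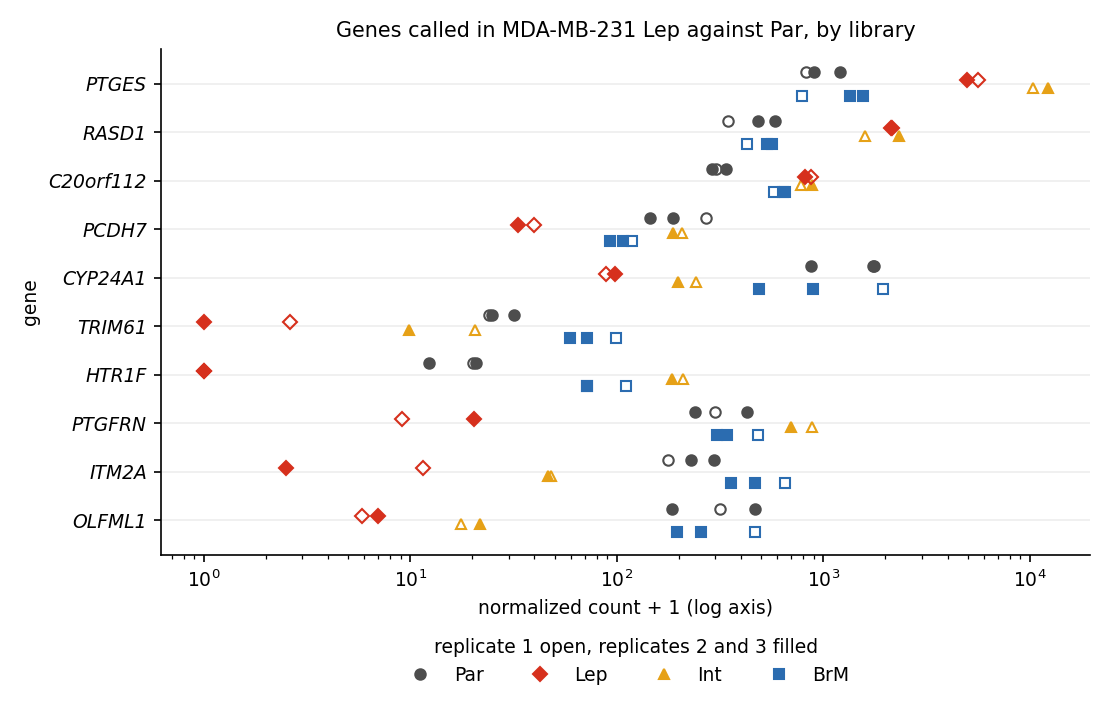
Normalized counts plus 1 (horizontal log axis) of the 10 called genes (rows) in every library of the table. Each symbol is 1 library: Par, Lep, Int and BrM by colour and shape, replicate 1 open and the others filled. For all 10 genes the 2 Lep libraries lie on one side of the 3 Par libraries, and for PTGFRN and HTR1F no Int or BrM library lies below the Par range.

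The 10 genes were also compared between Lep and the other derivatives in the same fit. These comparisons share the Lep libraries with the one against Par, so the values are set side by side only. Against Int, limma called 4 genes higher and 20 lower among all genes, 0.0265% and 0.132%, and against BrM 52 and 73, 0.344% and 0.483%. PTGFRN was lower in Lep than in Int, with a log2 difference of -5.85 ± 0.43 (limma adjusted p = 0.00143), and so was PCDH7 at -2.44 ± 0.32 (limma adjusted p = 0.0341), while HTR1F passed the test too (limma adjusted p = 0.00014). OLFML1, in contrast, had 16.6 and 20.8 in Int, and its Lep minus Int difference of -1.62 ± 0.50 did not pass (limma adjusted p = 0.225). CYP24A1, at 241 and 197 in Int, differed from Lep by -1.23 (limma adjusted p = 0.365). RASD1 had 1600.1 and 2321 in Int and C20orf112 780.3 and 883, with Lep minus Int differences of 0.15 and 0.03 (limma adjusted p = 0.785 and 0.948). A correction for length turned both to -0.0475 and -0.0597, and edgeR gave -0.00751 for C20orf112. Against BrM, OLFML1 was lower in Lep, at -5.48 ± 0.45 (limma adjusted p = 0.00282) and RASD1 higher by 2.08 ± 0.26 (limma adjusted p = 0.012). C20orf112, at 575 to 649 in BrM, differed by 0.45 (limma adjusted p = 0.187).

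The secreted inflammatory genes had the highest values relative to Par, although none was called by the fit with all 10 libraries. Of 16 tested chemokines and myeloid growth factors, all 16 had a positive difference, with a median of 2.52 on the log2 scale against -0.01 over all genes. In 11 of them both Lep libraries were above every Par library with a mean difference of at least 2-fold, beside 2.93% of all genes, and 9 were called by DESeq2, beside 1.24% of all genes. Their median was 2.70 for Lep replicate 1 and 1.70 for Lep replicate 2, and 2.90 for Lep replicate 1 against Par replicate 1 alone.

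CSF3, the granulocyte colony-stimulating factor, had the largest difference of all named genes. It had 58.4, 86.3 and 90.6 normalized counts in Par and 9373 and 14987 in Lep. Every Lep library was over 100 times any Par library, and the difference was 7.25 ± 1.47 (limma adjusted p = 0.111). The call depended on which other libraries estimated the spread: limma gave adjusted p = 0.00346 with Lep and Par alone and 0.00041 without BrM, and DESeq2 1.4e-06. BrM had 53.6 in replicate 1 and 4213 and 2403 in the others, so its replicates differed by more than 40-fold. Int had 5570.5 and 6211.

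The neutrophil-attracting CXC chemokines were high in the same libraries. CXCL1 had 411, 523 and 466 in Par and 5768 and 17404 in Lep, a difference of 4.43 ± 1.22 (limma adjusted p = 0.256, and 0.0186 without BrM). IL8, also called CXCL8, had 1789.7, 2099 and 1020.5 in Par and 29410.2 and 20129 in Lep, a difference of 3.96 ± 1.04 (limma adjusted p = 0.243, and 0.0166 without BrM). Neither overlapped between the groups, and for both BrM replicate 1, at 341 and 570.4, was below every Par library while BrM replicates 2 and 3 were above. CXCL2 and CXCL3 differed by 3.41 and 4.03. CXCL1, CXCL2 and CXCL3 are close copies of each other, so reads may have been split among them.

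Of the other members, CSF2, which encodes granulocyte-macrophage colony-stimulating factor, differed between the Lep replicates: it had 238, 189 and 144 in Par and 3447 and 557 in Lep. CCL20, a ligand that attracts T-helper and dendritic cells, had 5.04 to 13.97 in Par and 39.8 and 74.7 in Lep, and CCL26, an eosinophil attractant, 11.3 to 43.6 and 76.3 and 213. CXCL10, an interferon-induced attractant of T cells, had 0.822 to 6.47 in Par and 68.99 and 9.71 in Lep. CXCL16 was higher by 1.32. CXCL5 is counted among the 11, but its values of 0 in Par and 1.62 and 1.49 in Lep are under the level of 3 reads in both groups, so no fold is given.

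The stretches below show the letters just before the start of 5 genes of the inflammatory group, chosen because a kappaB consensus, the DNA sequence that NF-kB binds, was found there. They come from RefSeq promoters of GRCh38.p14, from 250 bases before to 50 after each start, and are printed 5′ to 3′ along the gene. The files use GRCh37, so these coordinates are of another build than the counts. The capitals mark the match, which was searched on both strands.

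CXCL1: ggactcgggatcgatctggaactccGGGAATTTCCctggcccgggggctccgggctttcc

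CXCL3: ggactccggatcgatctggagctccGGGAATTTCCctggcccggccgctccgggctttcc

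IL6: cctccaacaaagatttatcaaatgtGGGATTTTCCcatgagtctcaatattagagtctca

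LCN2: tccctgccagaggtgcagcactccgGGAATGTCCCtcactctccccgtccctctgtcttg

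NFKBIZ: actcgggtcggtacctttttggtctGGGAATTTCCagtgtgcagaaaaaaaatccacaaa

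The CXCL1 stretch is chr4:73869289-73869348 on the plus strand and the CXCL3 stretch chr4:74038734-74038793 on the minus strand, with the match beginning 79 bases before the start in both. The IL6 stretch is chr7:22727102-22727161 (73 bases before), the LCN2 stretch chr9:128149253-128149312 (175 bases before, matched on the opposite strand) and the NFKBIZ stretch chr3:101827742-101827801 (223 bases before), all on the plus strand. Overlapping matches on both strands, as in CXCL1 and CXCL3, were counted as 1. Of 10 named inflammatory, complement and iron genes with a RefSeq promoter, 6 held a match, these 5 and CFB, while BCL2A1, ICAM1, IL1A and IL1B held none in this window. Over all named list members with a promoter it was 13 of 33. Both are counts of genes, and a gene can have several promoters, as NFKBIZ did. Among all 35116 promoters, counted singly, 11.3% held a match. That share has another unit than the gene counts and is no baseline for them. Enrichment was not tested. A match is a run of letters, and binding was not measured here.

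Interleukin-1 and its relatives were the next group. Of 24 tested interleukins, receptors and acute phase genes, 21 had a positive difference with a median of 0.90, 8 were separated upward by at least 2-fold and none downward (2.93% and 1.18% of all genes), and DESeq2 called 5 higher (1.24% of all genes). IL1B, the secreted interleukin-1 beta, had 487, 639 and 370.3 in Par and 17391 and 52162 in Lep, more than 27 times any Par library. The difference was 5.95 ± 1.04 (limma adjusted p = 0.0823, 0.0166 without BrM and 0.0411 with Lep and Par alone). IL1A had 265, 425 and 223 in Par and 1363 and 3489.8 in Lep, a difference of 2.89 ± 0.78 (limma adjusted p = 0.252).

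For IL6, a driver of the acute phase response, Lep replicate 1 was the higher: Par had 221, 206 and 93.8 and Lep 2495 and 932, a difference of 3.23 ± 0.81 (limma adjusted p = 0.216). IL32 had 75.6 to 173 in Par and 597 and 553 in Lep. The acute phase gene SAA1 had 505, 1390.0 and 1512 in Par and 5879.9 and 2671 in Lep. Its near-identical copy SAA2 had 47.4 to 115 and 686 and 296. LIF, a cytokine of the interleukin-6 family, differed by 0.67 ± 0.15 (limma adjusted p = 0.169).

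NF-kB inhibitors and response genes were higher too, by less. Of 25 tested, 20 had a positive difference with a median of 0.70, 9 were separated upward and none downward by at least 2-fold (2.93% and 1.18% of all genes), and DESeq2 called 5 higher (1.24% of all genes). ICAM1, the adhesion molecule that leukocytes bind, had 1318, 904 and 1079 in Par and 14059 and 5363 in Lep, a difference of 3.00 ± 0.76 (limma adjusted p = 0.217). NFKBIZ, a nuclear co-activator of secondary NF-kB targets, had 1268, 780.1 and 438 in Par and 2841 and 3003 in Lep, a difference of 1.95 ± 0.39 (limma adjusted p = 0.111, and 0.0352 without Par replicate 1 and Lep replicate 1).

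The feedback inhibitors TNFAIP3 and NFKBIA were higher by 1.89 and 1.16. SOD2, the mitochondrial superoxide dismutase, had 1900.2 to 2675 in Par and 5412 and 4551 in Lep. BCL2A1, an anti-apoptotic protein, had 196 to 539 in Par and 1295 and 1914 in Lep. The subunit gene RELB overlapped between the groups. Of the 10 lymphocyte and neutrophil markers, CD3E, CD3D and CD4 had values above 5 in Lep replicate 1 alone and were at 0 in Lep replicate 2, while CD8A was present in all libraries. Many of the chemokine, interleukin and NF-kB genes above were named because both Lep libraries exceeded every Par library. Their height in Lep replicate 2 is therefore no separate result. The source of the T-cell transcripts was not tested.

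**Figure D3:**
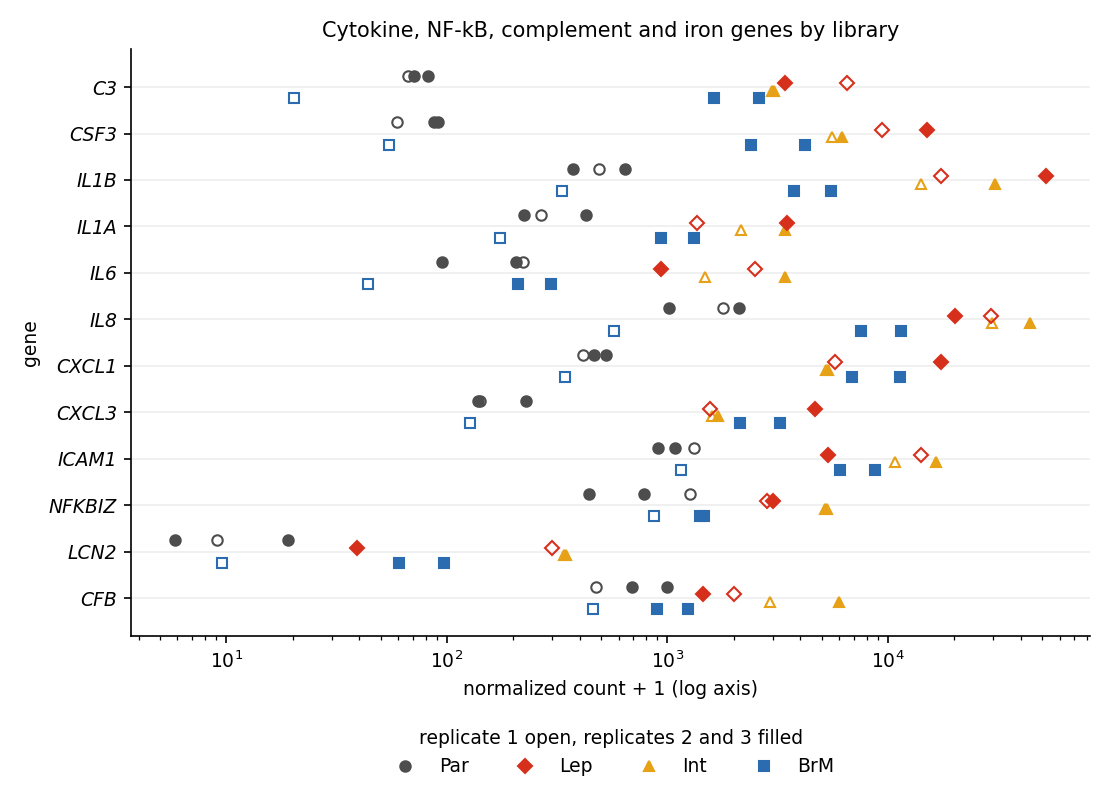
Normalized counts plus 1 (horizontal log axis) of 12 cytokine, NF-kB, complement and iron genes (rows) in every library. Each symbol is 1 library, with Par, Lep, Int and BrM by colour and shape and replicate 1 open. Both Lep libraries lie above all Par libraries for every gene shown. For C3, BrM replicate 1 lies below every Par library at 19.3, and BrM replicates 2 and 3 lie above at 2595 and 1621. BrM replicate 3 lies within the Par range for IL6, at 210, and for CFB, at 893.

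C3, the central component of complement, had 65.5, 69.9 and 80.9 normalized counts in Par and 6506 and 3425 in Lep. Every Lep library was thus more than 40 times any Par library. The difference was 6.02 ± 1.66 (limma adjusted p = 0.256), and it was called with Lep and Par alone (limma adjusted p = 0.00744), without BrM (0.000906) and by DESeq2 (0.000434). Int had 2977 and 3057, below both Lep libraries, and BrM 19.3, 2595 and 1621. CFB, complement factor B of the alternative pathway, had 472, 686 and 996 in Par and 2003 and 1443 in Lep, a difference of 1.31 (limma adjusted p = 0.384). C1S, a protease of the classical pathway, had 21.02 to 25.2 in Par and 132 and 45.6 in Lep.

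These 3 were the only ones of 18 tested complement genes separated by at least 2-fold, all upward, beside 2.93% of all genes. The list's median was 0.35 with 12 positive. Without Lep replicate 1 that median was -0.02, so the direction of the list rested on that library, while that of C3 did not, at 5.56 without it.

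LCN2 had 8.06, 18.1 and 4.85 in Par and 299.5 and 38.1 in Lep. The groups did not overlap, but the Lep replicates differed from each other almost 8-fold. The difference of 3.43 ± 1.07 (limma adjusted p = 0.316, DESeq2 0.00218) became 1.96 without Lep replicate 1 and 4.90 without Lep replicate 2. SLC22A17, its receptor, had 0 in all Par libraries and 0.812 and 0.747 in Lep, 1 read each, and was not tested. LCN2 was the only one of 15 tested iron genes separated by at least 2-fold, beside 2.93% of all genes separated upward. The ferritin genes FTH1 and FTL and the transferrin receptor TFRC overlapped, with differences of -0.27, -0.15 and 0.05. The median of the iron list was 0.12, and it changed sign without Par replicate 1 or Par replicate 3.

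Class II genes of antigen presentation had their lowest values in Lep replicate 2. Of 24 tested antigen presentation genes none was called, 5 had a positive difference, the median was -0.46, and 3 were separated downward and 1 upward by at least 2-fold, beside 1.18% and 2.93% of all genes. The median was -0.24 for Lep replicate 1, -0.71 for Lep replicate 2 and positive, at 0.35, when Lep replicate 1 was set against Par replicate 1 alone. HLA-DRA, the alpha chain of the class II DR molecule, had 4607, 6999.5 and 12744 in Par and 2699.7 and 472 in Lep. Its difference was -2.72 ± 0.63 (limma adjusted p = 0.172). Without Lep replicate 1 it was -3.97 and called (limma adjusted p = 0.021), and without Lep replicate 2 it was -1.46 (limma adjusted p = 0.278).

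HLA-DMB, which loads peptides onto class II molecules, followed the same pattern, with 388 and 89.7 in Lep against 482 to 1059 in Par. HLA-DRB1 had 1294 and 174 against 1399 to 6445, and its reads may be shared with close copies. HLA-DPA1 had 1003 and 62.01 against 753 to 2029.6, so Lep replicate 1 overlapped Par and Lep replicate 2 did not. CIITA, the activator of class II genes, had 606 and 326 against 475 to 705. B2M, the light chain of class I molecules, overlapped, with a difference of -0.16. CTSS, a protease that processes antigen, was the member separated upward, with 739, 628 and 737 in Par and 1902 and 1504 in Lep.

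Interferon-stimulated genes did not move as a block. Of 33 tested, 3 were separated upward and 2 downward by at least 2-fold, beside 2.93% and 1.18% of all genes. The median was 0.25. The higher ones were OASL, with 102 to 225 in Par and 556 and 947 in Lep (2.19 ± 0.39, limma adjusted p = 0.0825), IFIT2, with 566 to 818 and 1489 and 1945 (1.35 ± 0.21, limma adjusted p = 0.0661), and IFIT1, all antiviral proteins. The lower ones were IFI27 and BST2, the virion-tethering protein tetherin. BST2 had 1529.7, 6830.2 and 9711 in Par and 271 and 897 in Lep, a difference of -3.24 ± 0.73 (limma adjusted p = 0.16). Par replicate 1 was the lowest of its group. Without it and Lep replicate 1, BST2, IFI27, IFIT1, IFIT2 and OASL all passed the test, at -3.18, -2.33, 1.76, 1.70 and 2.26 (limma adjusted p = 0.00677, 0.02, 0.0134, 0.00928 and 0.0311).

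In prostaglandin metabolism, PTGES rose and PTGFRN fell as given above, and the other tested genes of the list of 23 did not pass. PTGS2, the inducible cyclooxygenase that makes the substrate of PTGES, had 563, 576 and 152 in Par and 2563 and 2799 in Lep. Both Lep libraries were over 4 times any Par library, and the difference was 2.86 ± 0.64 (limma adjusted p = 0.16, DESeq2 0.00111). The breakdown enzyme gene HPGD and the receptor gene PTGER4 overlapped, with differences of 0.07 and 0.40. The list's median was 0.20, and it changed sign without Lep replicate 1.

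Of 30 tested epithelial genes none was called by limma. In 5 the groups were separated upward by at least 2-fold and in none downward, beside 2.93% and 1.18% of all genes, with a median of 0.33, and DESeq2 called 4 higher, beside 1.24%. The same shares of all genes apply to the counts of the lists that follow. CLDN1, a tight-junction protein, had 713, 539 and 298 in Par and 2918 and 1834 in Lep, a difference of 2.25 ± 0.39 (limma adjusted p = 0.0823, and 0.0445 without Par replicate 1 and Lep replicate 1). SPINT1, an inhibitor of membrane proteases, had 68.5 to 152 and 252 and 406, and its target ST14 22.6 to 30.4 and 47.1 and 73.96. JUP, the junction protein plakoglobin, had 945 to 1447 and 3465 and 2672. KRT17, a stress keratin, had 6.05 to 22.2 and 38.1 and 310.1, mostly in Lep replicate 2. CDH1, encoding E-cadherin, and EPCAM overlapped, and CDH1 was high in Par replicate 1 alone.

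Of 20 mesenchymal genes 2 were separated upward and none downward, with a median of 0.36. The lowest was SPARC at -3.31, whose 2 Lep libraries differed and whose values are given further on. TNC, the matrix protein tenascin C, had 4495, 2944 and 2366 in Par and 8601 and 10739 in Lep (1.61 ± 0.32, limma adjusted p = 0.106). CNN1, a smooth-muscle calponin, had 8.09 to 12.3 and 34.9 and 328, so it too was mostly in Lep replicate 2.

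Among 27 collagens, COL4A6 and COL6A3 were separated, in opposite directions. COL4A6 had 9.70 to 21.2 in Par and 308 and 23.9 in Lep, hence mainly in Lep replicate 1. COL6A3 had 945, 1065 and 527 in Par and 368 and 247 in Lep. The collagen median of 0.07 turned negative under a length correction. Of 32 matrix proteases and inhibitors 2 were separated upward. ADAMTS9, which cleaves proteoglycans, had 748, 742 and 223 in Par and 2031 and 2044 in Lep.

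Of 18 integrin subunits 2 were separated, both upward, with a median of 0.54: ITGA1, a collagen receptor subunit, at 490.0 to 1199 and 1619 and 1992, and ITGB7, at 8.09 to 18.9 and 50.3 and 20.9. Among 20 plasminogen and coagulation genes the 2 separated were anticoagulants. THBD, thrombomodulin, had 3907 to 4214 in Par and 6355 and 17934 in Lep, and TFPI2, a protease inhibitor, 1417 to 2339 and 4579.6 and 5012.

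A list of genes reported in metastasis of MDA-MB-231 was included, which was drawn from work on this same line and is no independent evidence of a direction. Of 47 tested, 1 was called, PCDH7, which fell. Another 6 were separated upward by at least 2-fold (CSF3, CXCL1, PTGS2, TNC, CTSS and SCNN1A) and PCDH7 and LY6E downward, with a median of 0.28. MMP1, ID1, VCAN and ANGPTL4 were not separated by 2-fold, with differences of 0.54, -0.45, -0.77 and 0.89.

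Differences in the proliferation and housekeeping lists were under 2-fold. In the cell cycle list 4 of 38 genes had a positive difference, with a median of -0.28, and none was separated by 2-fold. Both Lep libraries were below every Par library in 13 of the 38, beside 9.63% of all genes, and 7 had a lower value at an unadjusted limma p below 0.05, beside 5.08%. The replication genes PCNA and GINS2 were lower, with 10829.7, 13821 and 14447 against 9759.9 and 8091 for PCNA, a difference of -0.54 ± 0.21 (limma adjusted p = 0.406). MKI67, a marker of cycling cells, overlapped at 15527 to 41658 in Par and 32029.6 and 28121 in Lep. Cytosolic ribosomal proteins (76 genes) and oxidative phosphorylation subunits (61 genes) had medians of -0.34 and -0.26 with no gene separated by 2-fold. Their transcripts are mostly short, and both medians were positive, 0.24 and 0.27, when Lep replicate 1 was set against Par replicate 1 alone.

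In the hypoxia and glycolysis list 3 of 38 genes were separated upward, with a median of 0.07: CA9, a carbonic anhydrase, at 13.1 to 32.3 in Par and 157 and 102 in Lep, the aldolase ALDOC, and SLC16A1, a lactate transporter. VEGFA was higher by 0.87 ± 0.22 (limma adjusted p = 0.217), and the glycolytic enzyme LDHA overlapped. None of the 32 cholesterol and fatty acid genes, 27 TGF-beta and YAP targets, 26 MAPK feedback genes or 15 ERBB receptors and ligands was separated by 2-fold, with medians of 0.18, -0.12, 0.44 and 0.14.

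Single genes of other lists stood out. GDF15, a stress-induced cytokine and p53 target, had 159, 129.9 and 118 in Par and 903 and 1606 in Lep, a difference of 3.15 ± 0.43 (limma adjusted p = 0.0547, edgeR 0.0458). NQO1, an NRF2 target and quinone reductase, had 14248, 27392 and 28169 in Par and 8134 and 10327 in Lep (-1.28 ± 0.32, limma adjusted p = 0.216). SEMA4B, a semaphorin, had 1221 to 1465 and 2779 and 2918, a difference of 1.06 ± 0.16 (limma adjusted p = 0.0562), and the Int libraries were about double that of Lep at 5667 and 5976.

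**Figure D4:**
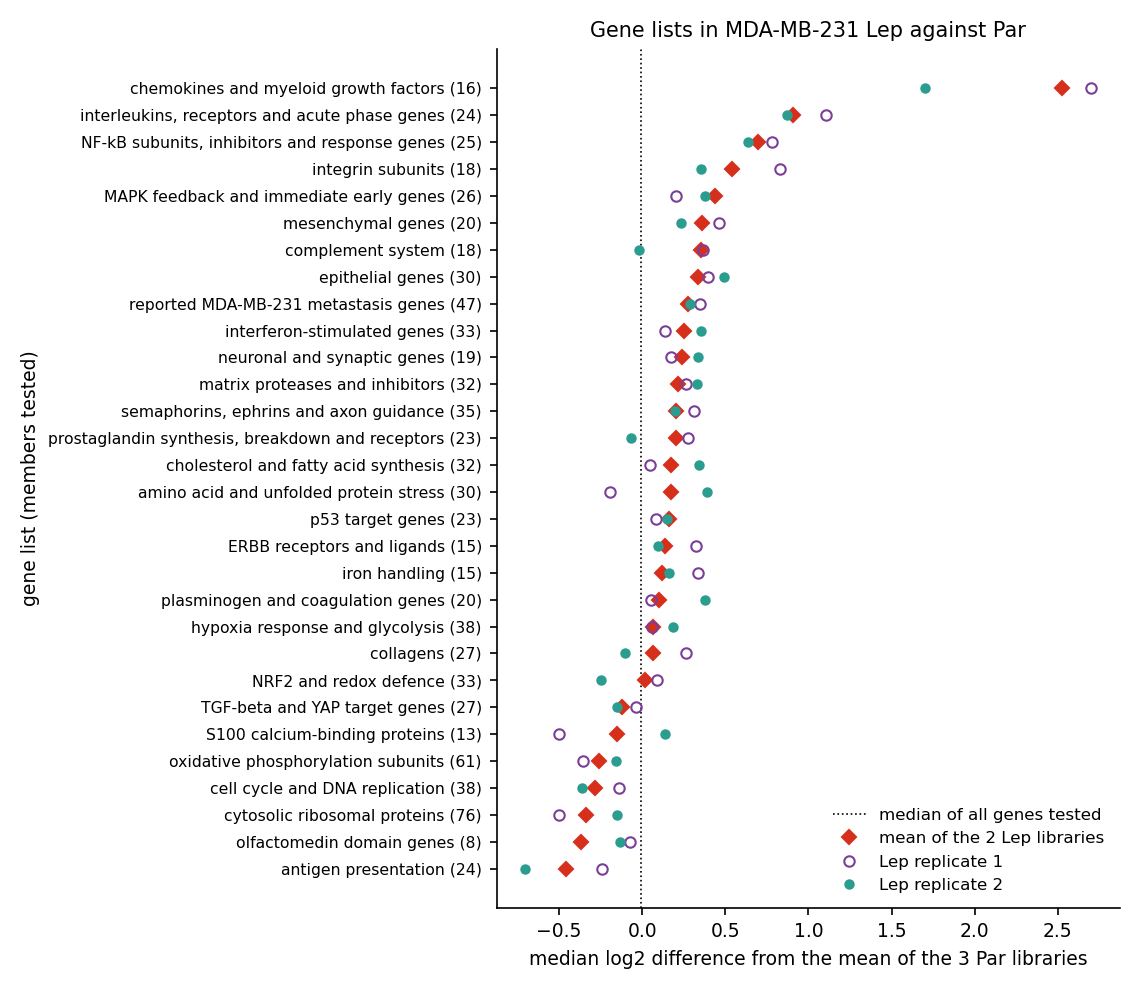
Median log2 difference from the Par mean (horizontal axis) for each gene list (rows, with the number of members tested) and for all genes (dotted line). Diamonds are the difference of group means, and open and filled circles Lep replicates 1 and 2. Chemokines and myeloid growth factors lie apart at 2.52, interleukins at 0.90 and antigen presentation at -0.46, and for the complement, prostaglandin, collagen, NRF2, amino acid stress and S100 lists the 2 Lep replicates fall on different sides of 0.

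The largest differences outside the lists were often carried by 1 Lep library. MUC5B, a secreted mucin, had 22.2, 4.93 and 4.85 in Par and 610.4 and 96.4 in Lep, a difference of 4.71 ± 0.80 (limma adjusted p = 0.0823, and 0.00829 without Par replicate 1 and Lep replicate 1). PI3, the elastase inhibitor elafin, had 4.85 to 18.9 in Par and 1128 and 85.2 in Lep, and its difference of 4.76 became 2.90 without Lep replicate 1 and 6.62 without Lep replicate 2. PDZK1IP1, a small membrane protein, was high in both, at 376 and 516 against 11.1 to 50.1. KCNN3, a calcium-activated potassium channel, had 57.6 and 264 against 4.11 to 10.1. Among the lower genes, MAGEA3, a cancer-testis antigen with close copies, had 130.0, 218 and 6.47 in Par and 0 in both Lep libraries, at least 50.5-fold lower against the floor of 3 reads per library (limma adjusted p = 0.118). That bound rests on the Par mean: it was 29.2-fold without Par replicate 2, and Par replicate 3 alone was 2.77-fold above the floor. PTPRN2, a receptor-type phosphatase of secretory granules, had 103 to 265 against 4.06 and 41.1.

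The 2 Lep libraries differed widely in a set of genes. In 28 genes with a Par mean of at least 100, Lep replicate 1 was at least 16-fold below the other Lep library and every Par library. No gene showed this for Lep replicate 2. In 23 of the 28 both Int libraries were below every Par library too, and in 10 of them by more than 4-fold. The share of all genes with Int below Par in this way was not counted. These counts therefore only describe the 28 genes and do not set them apart from other genes. SPARC, a secreted matrix glycoprotein reported in lung metastasis of this line, had 2709, 3264 and 5976 in Par and 28.4 and 4901 in Lep, with 92.7 and 224 in Int. EPB41L3, a cytoskeletal adaptor, had 727 to 1468 in Par and 3.25 and 7364 in Lep, so the 2 Lep libraries lay on opposite sides of Par, and 122 and 334 in Int. TUBA3C and PAGE5 had 13.8 and 2.44 in Lep replicate 1 against 8095 and 7166 in Lep replicate 2, with 112 and 263 for TUBA3C and 192 and 269.6 for PAGE5 in Int. ALPK2 had 11.4 and 251 in Lep and 9.62 and 19.3 in Int, so Int replicate 1 was the lowest. TSPYL5, SGK223, L3MBTL4 and ALPK2 belong to this set and count among the separated genes only because Lep replicate 2 was also slightly below Par. KIAA2022, also of this set and separated, was low in both Lep libraries, at 0 and 15.7 against 239.8, 105.2 and 156.9 in Par. TSPYL5 had 649, 499 and 708 in Par and 2.44 and 402 in Lep, against 510.5 and 435 in Int. Its difference of -4.04 fell in size to -0.61 when Lep replicate 1 was left out and was -7.48 when Lep replicate 2 was.

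**Figure D5:**
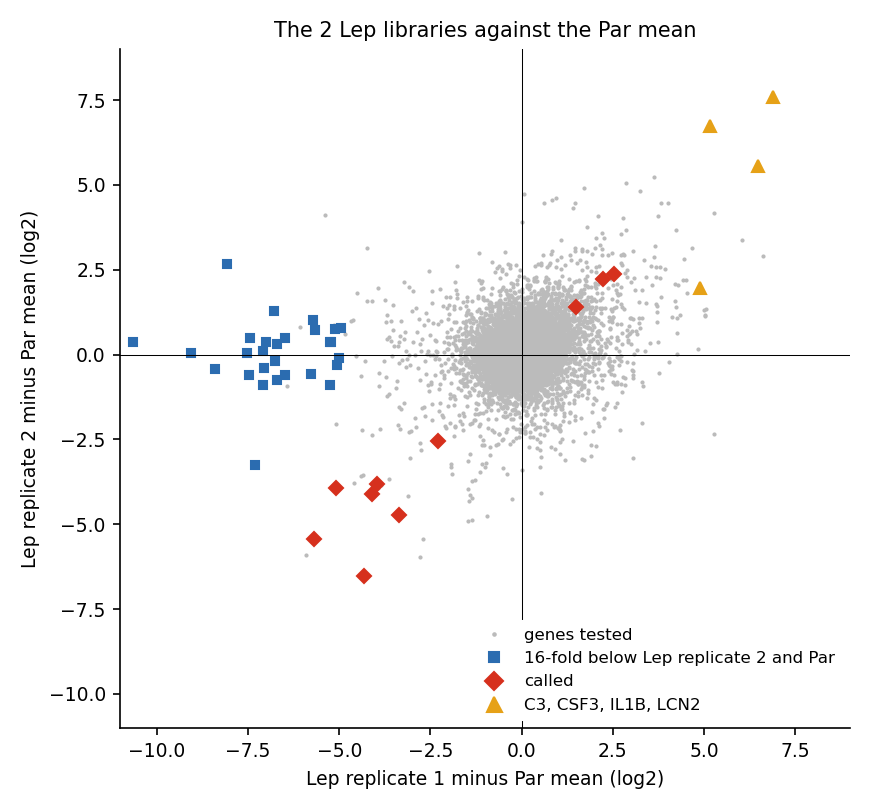
Each point is 1 of the 15106 genes: the log2 difference from the Par mean in Lep replicate 1 (horizontal axis) against that in Lep replicate 2 (vertical axis). Diamonds are the 10 called genes and triangles C3, CSF3, IL1B and LCN2. Squares are the 28 genes at least 16-fold lower in Lep replicate 1 than in Lep replicate 2 and every Par library. Called genes and triangles lie away from 0 in both libraries, while the squares lie far to the left, most of them near 0 on the vertical axis.

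Markers of other cell types were summed per library. In bulk RNA, fewer cells of a type and less RNA per cell cannot be told apart. The summed macrophage list was 7558 to 11120.0 in Par and 14104 and 9765 in Lep, mostly CD68. The lymphocyte and neutrophil list summed to 102 to 181 in Par and to 219 and 91.1 in Lep. The fibroblast list was 1840 to 2056.7 and 2093 and 2195. The endothelial list, mostly ESAM, was 8512 to 12540 and 10902 and 11219. The neural list, mostly MBP, was 3963 to 6515 and 5576 and 4895. Among the endothelial markers PECAM1, an endothelial and leukocyte adhesion molecule, had 29.6 to 37.3 in Par and 261 and 69.5 in Lep, with 387 and 922 in Int. The control genes GAPDH and ACTB differed by -0.27 ± 0.31 and -0.27 ± 0.22 (limma adjusted p = 0.805 and 0.738).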

How the data were processed

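The signal values deposited by the authors are read counts per gene divided by 1 size factor per library, named by gene symbol without coordinates. Per the labels' protocols, the TruSeq v2 kit was used and the MDA-MB-231 libraries were read on a HiSeq instrument as pairs of 75 bases. Per the submitters' processing notes, the tools were DESeq2, HTSeq 0.5.4 and FastQC 0.11.3 and the human build GRCh37 (hg19). The aligner and the strand setting are not given in the sources used here.

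Every value was a whole multiple of the library's step (tolerance 0.01) in 100% of values, so read counts were recovered: 23508951 to 110830546 per library. Deposited values were tested as log2(value + 1) with limma 3.58.1 in R 4.3.3 (trend, two-sided, 4 groups in 1 fit), because they are not counts. A call needs a Benjamini-Hochberg adjusted p below 0.05 over all 15106 genes and a fold of at least 2. Fold changes on this scale understate low genes. edgeR 4.0.16 (quasi-likelihood) and DESeq2 1.42.0 ran on recovered reads. On simulated counts of 15106 genes, limma recovered 86% of genes changed 4-fold and 100% of those changed 8- and 16-fold, with 6 false calls. Genes changed 2-fold were simulated too and are not summarised. The counts were drawn independently per library, without a length trend or genes high in 1 library. Recovery there is therefore not the power in the real libraries. Lengths and GC were medians per gene over GENCODE basic transcripts, matched by symbol to 14353 genes (95.0%).

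Members and the 30 gene lists were chosen with earlier results of these data known. Genes named are those called, the 12 largest non-overlapping differences each way (mean at least 100, unadjusted p below 0.05), up to 3 per list each way (mean at least 50), and fixed genes such as C3 and LCN2. Other list members and genes high or low in 1 library were chosen after their values were seen. Floors cover counting error only.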

Additional observations from a re-analysis of the deposited data

How the results depend on the processing

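Across 21 alternatives, differences of named genes between Lep and Par kept their sign. Most of these genes were named because their groups did not overlap, so leaving out libraries could not change it. Their kept sign is therefore no separate result. Signs changed only for the uncalled Lep minus Int differences of C20orf112 (-0.0597 with a length correction, -0.00751 by edgeR) and RASD1 (-0.0475 with a length correction). Beside 3 genes called higher and 7 lower, DESeq2 called 188 and 86, edgeR 4 and 4, a length correction 14 and 12, a length and GC correction 45 and 36 (8 and 2 with Lep and Par alone), library weights 5 and 7, a pseudocount of 0.25 5 and 11, a pseudocount of 10 5 and 8, quantile normalization 4 and 11, no filter on low values 4 and 4, Lep and Par alone 3 and 1, no BrM libraries 12 and 6, and neither Par replicate 1 nor Lep replicate 1 153 and 161. The higher share was thus 3 of 10, but 45 of 81 with the length and GC correction. With Lep and Par alone, the 3 higher calls included none of the 3 of the larger fit. Leaving out 1 library gave 0 to 51 higher and 3 to 69 lower calls, and 481 to 913 higher and 201 to 625 lower non-overlapping genes, beside 443 and 179. A pseudocount of 10 gave 287 higher non-overlapping genes, and leaving out Par replicate 1 and Lep replicate 1 together 1161 higher and 583 lower.

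With the replicate number as a block, 4 genes were called higher and 8 lower, with 2 of the 3 higher and all 7 lower calls shared. C20orf112 was lost (log2 fold change 1.43, limma adjusted p = 0.0618). With a length correction too the counts were 10 and 8. Deviations of same-numbered libraries correlated at 0.37 and -0.02 over genes, in only 2 pairs that the labels do not link. Medians of 9 of the 30 lists changed sign under at least 1 alternative. The length and GC correction, alone and with Lep and Par only, the fit without BrM, and the fit without Par replicate 1 and Lep replicate 1 were added after seeing the data.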
